A study of Homo sapiens with 19 samples.

Results

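The RNA profile of OCI-LY10, an established human cell line of diffuse large B-cell lymphoma, was set against the profiles deposited under the labels TMD8 and SUDHL2. It was chosen as all 9 RNA libraries carrying the OCI-LY10 label, of 15 RNA libraries and 19 samples in the series. The other 4 samples, chromatin immunoprecipitation and input, were not analysed here. All 3 lines are labelled as the activated B-cell-like subtype, and each is 1 cell line. Every RNA library came from cells that carried a hairpin RNA and received 20 ng/ml doxycycline for 2 days to induce it. The OCI-LY10 libraries comprise 3 with the control hairpin (shsc4), 3 with shEGR1#8 and 3 with shEGR1#9. The TMD8 and SUDHL2 labels have 1 library of each hairpin, so the hairpins weigh equally in each line. Nothing in the labels says that libraries of 1 group came from separate cultures, so the spread between them may be technical.

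The activated B-cell-like subtype resembles a B cell that has met antigen and started towards a plasma cell. Such a cell keeps the receptor complex and the PAX5 programme of a B cell, loses the germinal centre programme that BCL6 holds in place, and raises IRF4, while PRDM1 and XBP1 complete the plasma cell state. In this lymphoma, chronic signals through the B-cell receptor and MYD88 act on NF-kB, which drives the cytokines IL6 and IL10 and, through them, JAK kinases and STAT3.

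Levels below are FPKM, sequenced fragments scaled to gene length and library size, after each library was rescaled by the median ratio over 8687 genes found at 1 or more in all 15 libraries. Of 25266 genes in all 3 tables, 23227 remained without short RNA genes. The 11957 of these at a level of 1 or more in at least 3 libraries were compared on the log2(level + 1) scale, which understates differences of low genes. A gene was called higher when all 9 OCI-LY10 libraries lay above all 6 others and the OCI-LY10 mean was at least 1 log2 unit, or 2-fold, above the mean of each other label; lower was the mirror image. No p-value is given between lines, because the tables may have been normalized separately and each line stands for itself. Where values of a gene are listed for TMD8 or SUDHL2, they stand in the order control, shEGR1#8, shEGR1#9.

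The TMD8 and SUDHL2 libraries resembled each other far more than either resembled OCI-LY10. Spearman's rho across the 11957 genes was 0.979 to 0.994 over the 36 pairs of OCI-LY10 libraries. Between OCI-LY10 and TMD8 it was 0.745 to 0.805, and between OCI-LY10 and SUDHL2 0.735 to 0.779. Between the TMD8 and SUDHL2 labels rho was 0.907 to 0.973 (median 0.962), against 0.939 to 0.976 (median 0.939) within TMD8 and 0.969 to 0.982 (median 0.981) within SUDHL2. The TMD8 control library had a rho of 0.945 with the SUDHL2 control library and 0.939 with either hairpin library of its own label. By the same calling rule, 248 genes, or 2.07%, separated the TMD8 from the SUDHL2 label, 121 (1.01%) higher in TMD8 and 127 (1.06%) lower. The 2 labels are therefore not treated as independent support for each other below, and each value is given for both.

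**Figure D1:**
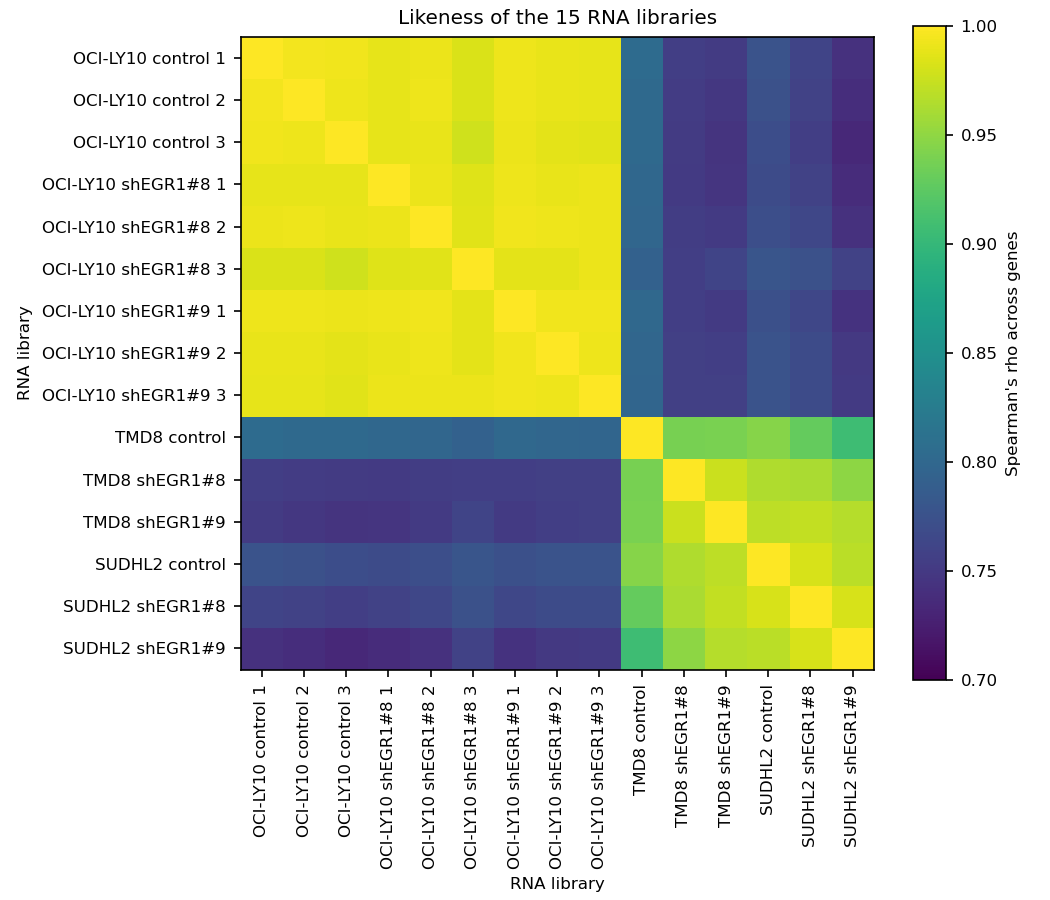
Spearman's rho across 11957 genes for each pair of the 15 RNA libraries, as colour from 0.70 to 1.00, with libraries named on both axes. OCI-LY10 forms 1 block with rho of at least 0.979, and the 6 libraries of the other labels form another, with rho of at least 0.907 within it.

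Several facts of the tables touch the comparison. More than 6 significant digits were given for 78.9% of the nonzero OCI-LY10 values and for none of the TMD8 or SUDHL2 values, so the tables were not written the same way. In the 6 other libraries 5799 genes were listed at 0 throughout, and in the 9 OCI-LY10 libraries 7984. Among them were genes that every cell uses, such as RPS18 and TUBB in the 6 others and, named after their values were seen, PSMD9 and PRDX2 in OCI-LY10. A 0 can thus be a failed estimate, and no fold is given against a side listed at 0. Of the called genes below, 155 of those higher and 233 of those lower rested on such a side. Short structural RNAs and histone RNAs were far more abundant in the other libraries. The summed level of 68 replication-dependent histone genes was 205 to 330 in OCI-LY10, 645 in the TMD8 control library, 3170 and 7147 in the TMD8 hairpin libraries, and 1911 to 2488 in SUDHL2. The TMD8 control library was thus the nearest to OCI-LY10 in this respect, and each list was also called against that library alone. The part of these RNAs in the line differences was not tested.

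OCI-LY10 differed from both other labels in many measured genes, in both directions. Of 11957 genes, 1286 (10.8%) were called higher in OCI-LY10 and 1836 (15.4%) lower, 26.1% in all. By percentile rank within each library, with no overlap and 10 points required, 1261 (10.5%) were higher and 1415 (11.8%) lower. Against the TMD8 control library alone, a rule chosen after seeing the data, 1561 (13.1%) were higher and 1910 (16.0%) lower. Against the TMD8 label alone, 1513 (12.7%) were higher and 2178 (18.2%) lower, and against SUDHL2 alone 1748 (14.6%) were higher and 2349 (19.6%) lower. The direction of the excess depended on the scale: 41.2% of called genes were higher here, 51.5% after quantile normalization and 60.7% when libraries were set to 1 total. The median difference of all genes was -0.07 on the log2 scale and moved to 0.28 with the total scaling and to -0.16 with scaling to 5 housekeeping genes. Within a label the median SD of a gene was small beside the 1 log2 unit required: 0.12 log2 units in OCI-LY10, 0.28 in TMD8 and 0.18 in SUDHL2.

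**Figure D2:**
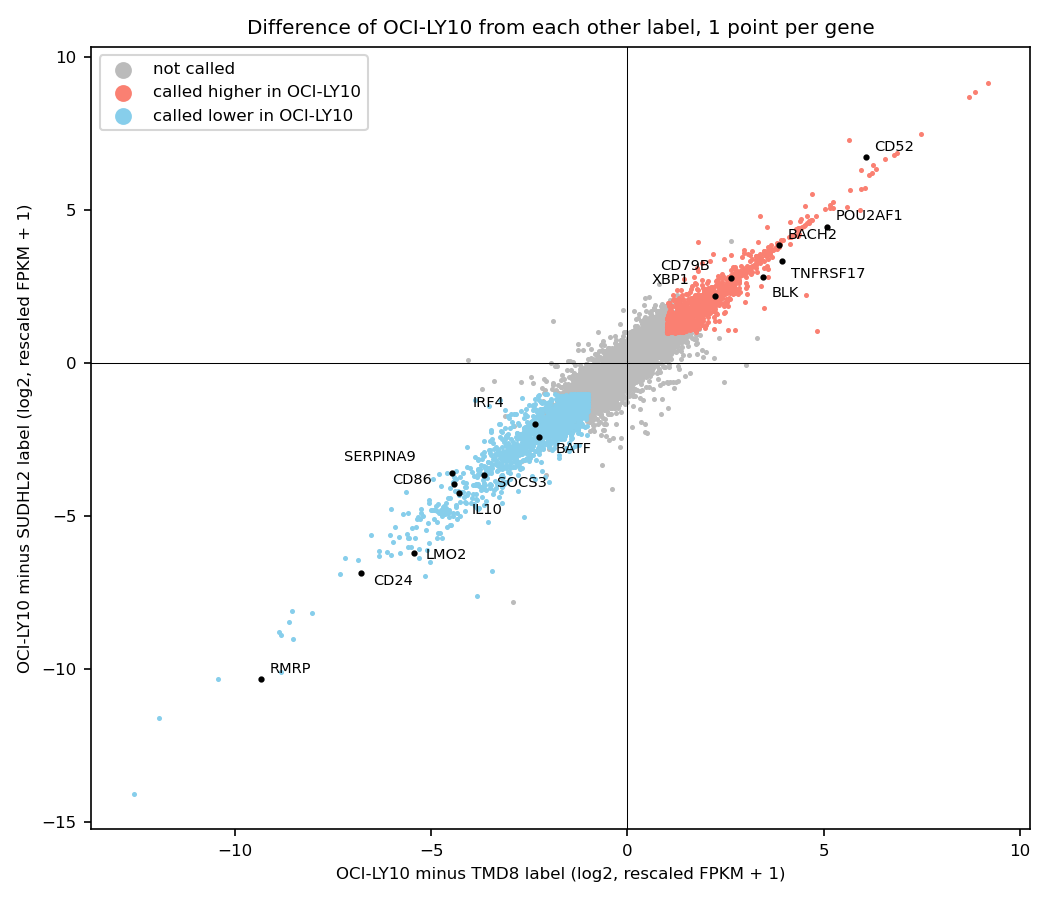
Difference of the OCI-LY10 mean from the TMD8 mean (x axis) and from the SUDHL2 mean (y axis), both in log2(level + 1) units, 1 point per gene, with called genes coloured. Both axes share the OCI-LY10 libraries, and the points lie along the diagonal; CD52 and POU2AF1 lie at the upper right, and CD24 and LMO2 at the lower left.

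The 3 lines all carried the RNA of B cells, at a higher summed level in OCI-LY10. The summed level of 26 B-cell identity genes was 3155 to 3796 in the OCI-LY10 libraries, 1535 to 1856 in TMD8 and 1818 to 1932 in SUDHL2. Of 25 members past the filter, 11 were called higher, 4 lower and 10 neither, beside 10.8% of all genes higher and 15.4% lower. The complement receptor gene CR2 stayed below the filter. By percentile rank 6 members were called higher and 2 lower, so 8 of the 15 calls were kept. CD79A and CD79B made up the largest part of the sum in OCI-LY10. The list's median difference was 1.18 log2 units, against -0.07 for all genes, and was at least 1.02 in every alternative on that scale. In bulk RNA, more cells of a type and more RNA per cell cannot be told apart.

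The signalling subunits of the B-cell receptor were among the most abundant RNAs of OCI-LY10. CD79B had a level of 954 to 1091 in its libraries (median 1045), against 187, 127 and 190 in TMD8 and 153, 140 and 153 in SUDHL2. Every OCI-LY10 library was thus several-fold above every other one, with a mean difference of 2.71 log2 units. CD79A, its partner chain, was at 548 to 1087 (median 819) in OCI-LY10, against 231, 290 and 383 in TMD8 and 290, 343 and 333 in SUDHL2. The gap to the highest TMD8 library was narrower for CD79A, and the mean difference was 1.37. The 3 lowest OCI-LY10 values of CD79A, at 678, 548 and 567, were those of the control hairpin. Both genes rank so high in every library that by percentile rank, with 10 points required, neither was called.

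Among the other surface proteins the directions were mixed. MS4A1, which encodes CD20, the target of rituximab, was at 225 to 333 (median 277) in OCI-LY10, against 204, 81.0 and 101 in TMD8 and 101, 92.1 and 78.4 in SUDHL2. The TMD8 control library came close to the OCI-LY10 range. The mean difference of 1.47 log2 units shrank to 0.49 against that library alone, where the call was lost, as it was without the TMD8 shEGR1#8 library (1.33), with the control hairpin libraries only (1.18) and with scaling to 5 housekeeping genes (1.36). By percentile rank it was not called either. FCER2, the low-affinity IgE receptor CD23, was at 8.42 to 17.0 (median 11.8) in OCI-LY10. It was at 0.220, 0 and 0.172 in TMD8 and listed at 0 in all SUDHL2 libraries. CD180, a toll-like receptor homologue of B cells, was at 28.7 to 34.8 (median 29.9), against 3.56, 4.07 and 3.59 in TMD8 and 4.05, 6.88 and 3.80 in SUDHL2. The 2 ranges lay far apart, and the mean difference was 2.60 log2 units. FCRL1, FCRLA and CD72, further B-cell surface and Fc-receptor-like genes, were higher by 3.03, 1.23 and 1.49 log2 units. By rank FCRLA and CD72 were not called.

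CD24, a glycosylated surface protein of early and mature B cells, stood the other way. It was at 0.369 to 0.663 (median 0.503) in OCI-LY10, against 219, 146 and 144 in TMD8 and 181, 197 and 148 in SUDHL2. The level listed for CD24 was thus low in OCI-LY10, while it ranked between the 97.8 and 98.5 percentile in each other library. The difference was -6.82 log2 units. No hg19 annotation was used here, so where the CD24 reads were assigned was not checked, and the difference is uncertain. CD22, an inhibitory lectin of the receptor complex, was at 19.4 to 25.2 (median 22.9), against 55.6, 53.7 and 62.4 in TMD8 and 72.2, 60.7 and 66.2 in SUDHL2. The values did not overlap, with a difference of -1.39, but CD22 was not called by rank or with the total scaling (-1.02). TNFRSF13C, the BAFF receptor, was lower by -1.85 log2 units in the main comparison. The call was lost against the TMD8 control library alone (-0.65), with the control hairpin libraries only (-1.42) and with the total scaling (-1.51).

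**Figure D3:**
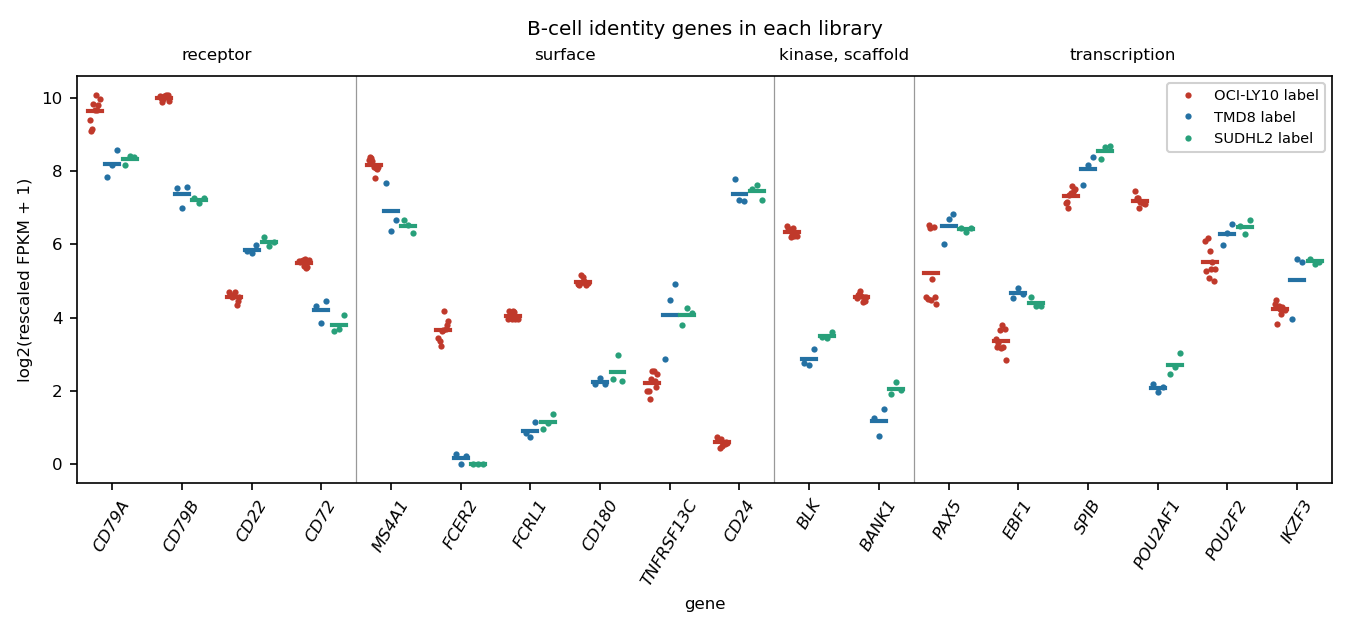
Level of 18 B-cell identity genes in each library, as log2(level + 1); points are libraries (9, 3 and 3) and bars the mean of each label. CD79B, BLK, BANK1 and POU2AF1 sit above both other labels in all 9 OCI-LY10 libraries, CD24 sits below, and PAX5 is spread over 2 levels in OCI-LY10.

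The largest difference among the B-cell transcription regulators was that of POU2AF1, the coactivator of octamer-binding factors at immunoglobulin promoters. It was at 126 to 175 (median 141) in OCI-LY10, against 3.53, 2.92 and 3.34 in TMD8 and 4.48, 5.35 and 7.17 in SUDHL2. No other library came near the OCI-LY10 range. The difference was 4.78 log2 units, and the median percentile rank was 98.1 in OCI-LY10, 62.0 in TMD8 and 67.4 in SUDHL2. BLK, a SRC-family kinase of B cells, was at 72.1 to 89.7 (median 78.2), against 5.77, 5.53 and 7.83 in TMD8 and 10.1, 9.84 and 11.2 in SUDHL2. BANK1, a scaffold that links the receptor to LYN, was at 20.7 to 25.6 (median 22.9), against 1.40, 0.696 and 1.82 in TMD8 and 2.80, 3.70 and 3.08 in SUDHL2. These differences were 3.15 and 2.96 log2 units, both without overlap.

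PAX5, which commits cells to the B lineage, had 2 levels within OCI-LY10. Its values were 22.9, 21.8 and 91.3 in the control libraries, 86.7, 21.5 and 32.0 with shEGR1#8 and 88.6, 22.5 and 19.7 with shEGR1#9. The 3 high libraries fell in 3 different hairpin groups and reached the TMD8 values of 63.2, 102 and 114 and the SUDHL2 values of 87.0, 79.8 and 86.0, so PAX5 was not called. EBF1, its partner in early B cells, was at 6.15 to 12.8 (median 8.98), against 22.1, 27.3 and 24.1 in TMD8 and 22.7, 19 and 19.1 in SUDHL2. It was called lower at -1.17 log2 units. The call was lost by rank, with the total scaling (-0.82), and without the OCI-LY10 shEGR1#9 replicate 3 (-1.10) or the SUDHL2 control library (-1.13). SPIB, POU2F2 and IKZF3, regulators of mature B cells, were not called, with differences of -0.97, -0.88 and -1.06.

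The activated B-cell-like list showed no common direction. Of its 25 members, all past the filter, 5 were called higher, 5 lower and 15 neither, beside 10.8% of all genes higher and 15.4% lower. Its median difference was 0.02 log2 units. By percentile rank 3 of these 10 calls held, all of them higher genes, and against the TMD8 control library alone 9 held. IRF4, the regulator that defines this subtype in diagnostic staining, was at 91.7 to 107 (median 97.0) in OCI-LY10, against 491, 531 and 507 in TMD8 and 463, 373 and 344 in SUDHL2. The lowest other library was over 3 times the highest OCI-LY10 library, and the difference was -2.17 log2 units. IRF4 still ranked at the 97.0 percentile in OCI-LY10, against 99.4 in TMD8 and 99.3 in SUDHL2.

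BATF, an AP-1 partner of IRF4, was at 56.1 to 75.8 (median 59.5) in OCI-LY10, against 291, 277 and 315 in TMD8 and 337, 330 and 317 in SUDHL2. Its difference of -2.33 log2 units was close to that of IRF4. STAT3, the transcription factor downstream of IL6 and IL10, was at 22.1 to 46.4 (median 23.8), against 72.2, 85.7 and 82.7 in TMD8 and 80.4, 88.1 and 80.9 in SUDHL2. The 2 OCI-LY10 libraries above 40, at 40.2 and 46.4, both carried shEGR1#8, and the difference was -1.57. CD44, an adhesion receptor, was lower by -1.69. None of these 4 lower genes was called by rank.

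Genes of survival and kinase signalling in the same list were higher in OCI-LY10. PIM1, a kinase induced by STAT3 and NF-kB, was at 221 to 414 (median 374), against 56.4, 51.0 and 59.4 in TMD8 and 83.5, 71.9 and 79.5 in SUDHL2. Within OCI-LY10 the values formed 2 groups, 221, 226, 234 and 236 in 4 libraries and 374 to 414 in the other 5, and both lay above all other libraries. BCL2, the inhibitor of cell death that venetoclax targets, was at 55.3 to 62.7 (median 59), against 21.6, 29.1 and 26.5 in TMD8 and 16.7, 12.2 and 11.2 in SUDHL2. BMF, a death-promoting protein that binds BCL2 relatives, was at 70.0 to 76.9 (median 73.3), against 12.5, 16.6 and 18.6 in TMD8 and 9.75, 10.5 and 17.3 in SUDHL2. The differences of PIM1, BCL2 and BMF were 2.23, 1.63 and 2.33 log2 units. The BCL2 call was lost with scaling to 5 housekeeping genes (1.53), and PIM1 and BCL2 were not called by rank. FOXP1, a factor often amplified in this subtype, was at 20.6 to 25.2 (median 23.3), against 21.5, 24.5 and 24.9 in TMD8 and 24.8, 22.2 and 19.9 in SUDHL2. The FOXP1 ranges overlapped fully.

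The 15 genes that clinical expression assays use to separate the 2 lymphoma subtypes were read in the same way. Of the 8 genes of the activated side, LIMD1 and CCDC50 were called higher (1.54 and 1.40 log2 units), IRF4 lower, and 5 neither. The CCDC50 difference was 0.88 against the TMD8 control library, which lost the call. TNFRSF13B, the receptor TACI, was at 116 to 152 (median 133) in OCI-LY10, against 33.2, 72.3 and 75.6 in TMD8 and 47.4, 72.0 and 86.8 in SUDHL2. It did not overlap, but its difference from SUDHL2, 0.98, was just under the required size. Of the 7 genes of the germinal centre side, MME, ASB13 and MAML3 were below the filter in these lines. SERPINA9, MYBL1 and S1PR2 were called lower, and ITPKB was not called. All 5 housekeeping genes of that assay were not called, with a median difference of 0.06.

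Germinal centre genes differed in both directions, and several were nearly absent from OCI-LY10. Of 21 members past the filter, of 25 listed, 8 were called lower, 4 higher and 9 neither, beside 15.4% of all genes lower and 10.8% higher. By rank all 12 of these calls held, and against the TMD8 control library alone 10 held, S1PR2 and GNA13 being lost. BCL6, the master repressor of the germinal centre, was at 15.2 to 23.9 (median 19.7) in OCI-LY10, against 16.4, 22.6 and 20.4 in TMD8 and 22.7, 30.5 and 24.1 in SUDHL2. Its range overlapped with both labels, and it was not called.

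LMO2, a bridging transcription cofactor used as a germinal centre marker, was at 0.119 to 0.285 (median 0.204) in OCI-LY10, against 52.1, 47.7 and 53.9 in TMD8 and 87.5, 89.8 and 84.3 in SUDHL2. OCI-LY10 was thus nearly without LMO2 RNA, at a difference of -5.83 log2 units. SERPINA9, a serpin of germinal centre B cells, was at 0 to 0.175 (median 0), against 24.2, 16.1 and 25.4 in TMD8 and 20.2, 7.37 and 9.53 in SUDHL2. MEF2B, an activator of BCL6 that is mutated in lymphoma, was at 0 to 8.00 (median 5.20), against 136, 93.9 and 153 in TMD8 and 135, 131 and 133 in SUDHL2. No OCI-LY10 library came near the other values of MEF2B, whose reads may be split with a read-through transcript of its neighbour. MYBL1, a MYB-family factor, and S1PR2, a receptor that keeps cells in the follicle, were lower by -1.67 and -1.68. The S1PR2 difference was -0.97 against the TMD8 control library. DEF8 and NEK6 were lower by -3.73 and -2.04, and DENND3 was also called lower.

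The 4 germinal centre genes called higher were BACH2, ELL3, GNA13 and P2RY8. BACH2, a repressor that delays plasma cell fate by holding down PRDM1, was at 11.6 to 14.5 (median 13.7) in OCI-LY10. It was at 0.00855, 0 and 0 in TMD8 and 0, 0.0218 and 0 in SUDHL2, so its RNA was close to absent from the other tables. The difference was 3.85 log2 units. ELL3, an elongation factor, was at 25.9 to 38.7 (median 29.2), against 5.54, 5.18 and 4.60 in TMD8 and 6.84, 6.91 and 7.29 in SUDHL2. GNA13, the G protein downstream of S1PR2, was higher by 1.46, but lost the call against the TMD8 control library alone (0.84) and with the control hairpin libraries only (1.10). P2RY8, a receptor that signals through GNA13, was at 9.95 to 12.4 (median 11.1) and listed at 0 in all 6 other libraries. P2RY8 and SLC25A6, another gene so listed, lie in the region shared by both sex chromosomes, where reads match more than 1 place, and both are uncertain.

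**Figure D4:**
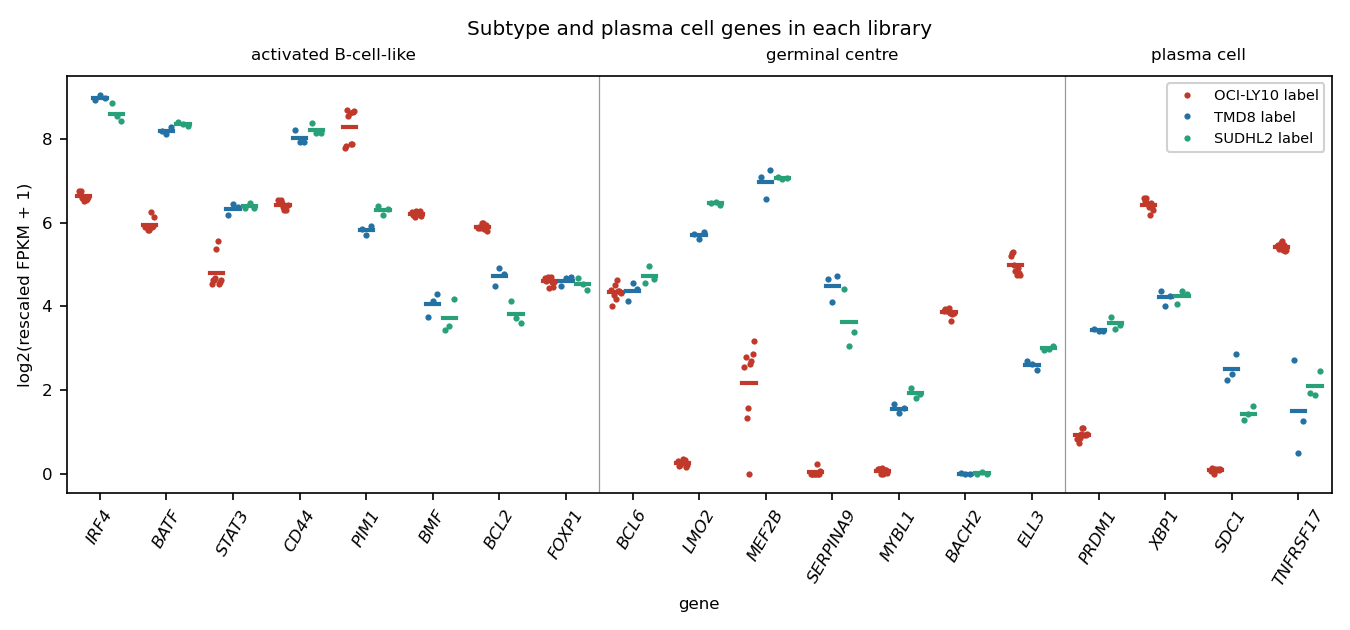
Level of 19 subtype and plasma cell genes in each library, as log2(level + 1); points are libraries (9, 3 and 3) and bars the mean of each label. IRF4, BATF, STAT3 and CD44 sit lower in OCI-LY10 and PIM1, BMF and BCL2 higher; LMO2, SERPINA9 and PRDM1 are near the floor in OCI-LY10, and BACH2 is near the floor in the others.

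The plasma cell regulators PRDM1 and XBP1 differed in opposite directions. PRDM1, which encodes BLIMP1, was at 0.668 to 1.13 (median 0.900) in OCI-LY10, against 10.1, 9.71 and 9.70 in TMD8 and 12.5, 10.1 and 10.7 in SUDHL2. XBP1, which drives the secretory apparatus, was at 71.7 to 96.0 (median 87.5), against 19.8, 15.1 and 18.1 in TMD8 and 15.7, 19.8 and 18.8 in SUDHL2. Neither overlapped, with differences of -2.59 and 2.20 log2 units. HERPUD1, a stress gene of the endoplasmic reticulum, was at 150 to 211 (median 199), against 41.7, 40.7 and 49.6 in TMD8 and 45.9, 57.5 and 55.3 in SUDHL2. It was higher by 1.90, but was not called by rank. FKBP11, a secretory pathway isomerase, went the other way, at 17.6 to 23.0 (median 20.9), against 70.1 to 76.5 in TMD8 and 70.9 to 92.5 in SUDHL2.

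TNFRSF17, the plasma cell receptor BCMA, was at 39.4 to 46.1 (median 42.9) in OCI-LY10, against 5.54, 0.418 and 1.39 in TMD8 and 2.81, 2.70 and 4.53 in SUDHL2. The difference was 3.64 log2 units. SDC1, the plasma cell surface proteoglycan CD138, was at 0 to 0.0979 (median 0.0680), against 3.73, 4.19 and 6.31 in TMD8 and 1.44, 1.68 and 2.06 in SUDHL2. SDC1 was thus low in every library and nearly absent from OCI-LY10, at -1.88. CD38, an ectoenzyme of plasma cells, was called against TMD8 alone, where it was at 0.543, 2.05 and 1.88 beside 7.12 to 9.35 in OCI-LY10. In SUDHL2 it was at 2.64, 10.1 and 8.96, across the OCI-LY10 range. Over the whole list, 4 of 20 members were higher, 3 lower and 13 neither, with a median of 0.36. The fourth higher gene was IGJ, the joining chain. Among all genes, 10.8% were higher and 15.4% lower.

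Few components of B-cell receptor and MYD88 signalling were called. Of 23 members past the filter, 1 was called higher, 2 lower and 20 neither, both shares under those of all genes, with a median of -0.18. MYD88 was at 33.1 to 46.1 (median 42.3) in OCI-LY10, against 31.6, 43.8 and 42.4 in TMD8 and 50.8, 59.5 and 65.9 in SUDHL2. It overlapped with TMD8, and it was not called. SYK, LYN and PLCG2, the proximal kinases and the phospholipase, were not called either, with differences of 0.37, -0.49 and -0.20. BTK, the kinase that ibrutinib inhibits, was at 68.8 to 88.5 (median 83.7), against 157, 161 and 153 in TMD8 and 172, 190 and 201 in SUDHL2. Its values did not overlap, but the difference from TMD8, -0.95, was under the required size.

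The called members of that list were a pair of phosphatases and a nucleic acid sensor. INPP5D, the lipid phosphatase SHIP1 that restrains the receptor, was at 91.9 to 117 (median 108), against 18.6, 29.8 and 30.4 in TMD8 and 26.8, 33.1 and 33.2 in SUDHL2. PTPN6, the tyrosine phosphatase SHP-1 recruited by CD22 and CD72, was at 45.8 to 85.4 (median 71.1), against 190, 208 and 259 in TMD8 and 278, 341 and 326 in SUDHL2. The 2 inhibitors thus lay on opposite sides, at 1.87 and -1.98 log2 units, and neither was called by rank. TLR7, an endosomal RNA sensor upstream of MYD88, was lower by -1.88, from levels of 0.241 to 0.435 in OCI-LY10 and 2.78 to 5.63 in the others.

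Among NF-kB genes, 3 cytokine genes, IL6, IL10 and CCL22, and several regulators were lower in OCI-LY10, while the subunits were not called. Of 26 members past the filter, of 30 listed, 2 were higher, 7 lower and 17 neither, beside 10.8% of all genes higher and 15.4% lower. The median was -0.49 log2 units, between -0.59 and -0.12 in the alternatives. IL10, an autocrine cytokine of this lymphoma, was at 2.32 to 3.47 (median 3.19), against 106, 60.2 and 74.8 in TMD8 and 66.1, 70.5 and 89.6 in SUDHL2. IL6 was listed at 0 in all 9 OCI-LY10 libraries, against 9.80, 10.1 and 12.8 in TMD8 and 24.6, 40.2 and 44.6 in SUDHL2. The IL10 difference was -4.27. The cytokine genes CCL3, CCL4 and EBI3 were not called, with differences of -0.13, -1.71 and -0.62. TNF, LTA and LTB stayed below the filter, at no more than 1.08, 0.569 and 0.212 in any library. Whether these low values are failed estimates was not tested. The subunit genes NFKB1, NFKB2, REL, RELA and RELB had differences of -0.72, -0.34, -0.70, 0.03 and -0.56, none of them called against both labels.

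TRAF3, an adaptor that holds the alternative NF-kB pathway in check, was at 1.63 to 2.07 (median 1.89) in OCI-LY10, against 23.8, 30.2 and 25 in TMD8 and 19.4, 23.6 and 20.7 in SUDHL2. BCL3, a nuclear cofactor of NF-kB, was at 7.84 to 13.4 (median 9.02), against 39.3, 61.8 and 83.4 in TMD8 and 74.1, 102 and 116 in SUDHL2. Both were lower without overlap, at -3.11 and -2.84. NFKBIE, an inhibitor that holds NF-kB in the cytoplasm, was higher, at 79.6 to 127 (median 122), against 24.3, 25 and 25.4 in TMD8 and 29.8, 35.7 and 39.0 in SUDHL2. Its difference was 1.83, and by rank it was not called. BIRC3, an inhibitor of cell death induced by NF-kB, was higher by 1.15, and with scaling to 5 housekeeping genes its call was lost (1.05). TNFAIP3, the deubiquitinase A20, was called against TMD8 only, at 1.14 there and 0.60 against SUDHL2. The remaining calls, all lower, were NFKBIB, CFLAR and CCL22.

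Of the negative regulators of JAK-STAT signalling, SOCS3, SOCS1 and PTPN2 were lower in OCI-LY10. CISH and SH2B3, which also restrain the pathway, were not called, with differences of -1.18 and -0.27 log2 units, and SOCS2 stayed below the filter. SOCS3, which STAT3 induces and which blocks JAK kinases, was at 2.55 to 5.33 (median 3.10), against 39.6, 56.8 and 65.7 in TMD8 and 35.3, 64.4 and 63.3 in SUDHL2. SOCS1 was at 0 to 0.409 (median 0.167), against 7.12, 6.52 and 11.3 in TMD8 and 7.87, 10.9 and 12.2 in SUDHL2. OCI-LY10 lay well under both, at -3.65 and -3.11 log2 units. PTPN2, a phosphatase that acts on JAK and STAT proteins, was at 7.17 to 9.09 (median 8.37), against 75.7, 58.3 and 51.8 in TMD8 and 56.1, 54.0 and 40.7 in SUDHL2. JAK2 was lower by -1.83, though by rank it was not called. STAT5A was the member called higher, at 9.59 to 19.2 (median 15.2), against 2.10, 3.79 and 2.24 in TMD8 and 1.03, 1.49 and 1.73 in SUDHL2, a difference of 2.33. With IL13RA1, 5 of 20 members were lower, 1 was higher and 14 were neither, beside 15.4% of all genes lower and 10.8% higher. The list's median difference was nonetheless 0.23 log2 units, between 0.12 and 0.59 in the log2 alternatives. Of its members 13 had a difference above 0 and 7 below. By percentile rank 3 members were called higher and 5 lower.

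**Figure D5:**
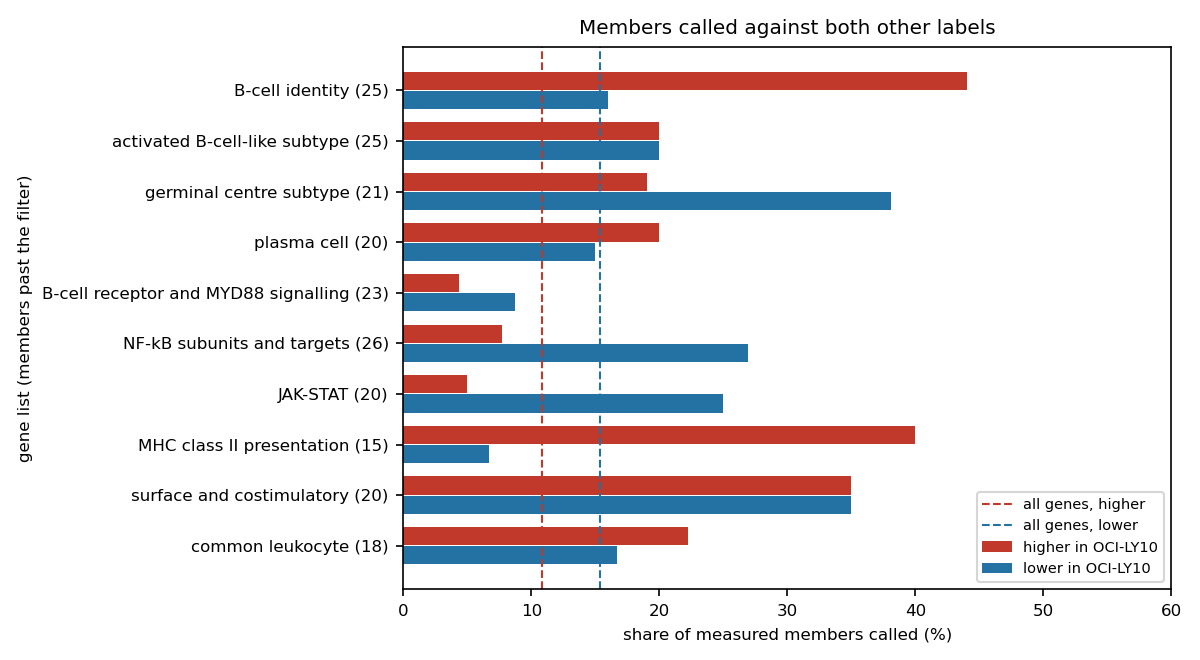
Share of each list's members past the filter that were called higher (red) or lower (blue) in OCI-LY10 against both other labels, in percent, with the number of members in brackets; dashed lines give the shares of all genes, 10.8% and 15.4%. B-cell identity and MHC class II genes lie far above the first line in the higher direction, and germinal centre and surface genes far above the second in the lower direction.

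Among class II antigen presentation genes several HLA genes were higher in OCI-LY10, while the transactivator and the invariant chain were not called. CIITA, the master transactivator, was at 7.75 to 13.6 (median 11.3), against 6.14, 11.5 and 14.1 in TMD8 and 7.50, 7.55 and 9.94 in SUDHL2. CD74, the invariant chain, was at 674 to 1484 (median 1155), against 936, 935 and 1243 in TMD8 and 821, 825 and 921 in SUDHL2. Both overlapped and were not called. HLA-DRA was at 21.1 to 47.1 (median 36) in OCI-LY10 and listed at 0 in all 6 other libraries. HLA-DQA1 was at 18.7 to 41.0 (median 34.6), against 3.62, 1.48 and 4.27 in TMD8 and 0.781, 1.45 and 2.08 in SUDHL2. HLA genes are polymorphic and have near-identical copies, so their counting is uncertain in all tables. Of 15 members past the filter 6 were higher, 1 lower and 8 neither, beside 10.8% of all genes higher and 15.4% lower. Among those 6 were HLA-DQB1, HLA-DRB1, HLA-DMA, listed at 0 in the 6 others, and the regulator RFXAP; the lower one was HLA-DRB5, listed at 0 in OCI-LY10. The chain gene HLA-DPA1, with a difference of 1.51 log2 units, was not called. HLA-DMB, at 0 to 1.61 in OCI-LY10 and listed at 0 in all 6 other libraries, was not called either.

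Surface and costimulatory genes lay far apart between OCI-LY10 and the other labels, in both directions. Of 20 members past the filter, of 25 listed, 7 were higher, 7 lower and 6 neither, beside 10.8% of all genes higher and 15.4% lower. CD52, the lymphocyte antigen that alemtuzumab binds, was at 228 to 362 (median 286) in OCI-LY10, against 4.78, 2.19 and 3.65 in TMD8 and 2.17, 1.93 and 1.32 in SUDHL2. The ranges lay far apart, and the difference was 6.40 log2 units. CCR7, the chemokine receptor that guides cells to lymph nodes, was higher by 2.07, at 50.1 to 85.3 (median 71.9) against 6.92 to 24.7 in the 6 others.

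The costimulatory ligand CD86 was at 1.49 to 1.89 (median 1.56) in OCI-LY10, against 60.8, 55.7 and 48.1 in TMD8 and 28.4, 44.1 and 48.0 in SUDHL2. It was lower by -4.18. CD58, the ligand of CD2 on T and NK cells, was listed at 0 in all 9 OCI-LY10 libraries, against 39.2, 14.6 and 18.3 in TMD8 and 17.0, 17.5 and 13.7 in SUDHL2. CD5, a T-cell and B-1 cell receptor, and ITGA4, an integrin chain, were also listed at 0 in OCI-LY10, and at 9.59 to 14.0 and 10.6 to 21.3 in the others. The remaining calls were CD69, CD1C, LAIR1, PECAM1 and ITGB7, higher, and CD80 and CXCR4, lower.

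Genes common to leukocytes were near balance. PTPRC, the leukocyte antigen CD45, was at 45.9 to 57.2 (median 49.6), against 69.0, 60.4 and 59.7 in TMD8 and 39.7, 61.8 and 75.1 in SUDHL2. It overlapped with SUDHL2 and was not called. LAPTM5, a lysosomal protein of blood cells, was at 487 to 600 (median 532), against 181, 105 and 121 in TMD8 and 143, 111 and 108 in SUDHL2. PTPRCAP, which binds CD45, was at 18.2 to 50.1 (median 32.8), against 112, 78.8 and 113 in TMD8 and 164, 144 and 123 in SUDHL2. Of 18 members 4 were higher, 3 lower and 11 neither, beside 10.8% of all genes higher and 15.4% lower. By rank 3 of these 7 calls held, LAPTM5 and PTPRCAP not among them.

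Markers of other cell types were low in OCI-LY10 but not all at 0. Of 24 T and NK markers, 20 were under 1 in every OCI-LY10 library, 12 of them at 0 throughout, and CD3D, CD3E and CD2 were under 1 in all 15 libraries. The list's summed level was 35.7 to 61.7 in OCI-LY10, 177 to 258 in TMD8 and 263 to 297 in SUDHL2. In the others GZMB, the protease granzyme B, made up most of that sum, at 174, 234 and 252 in TMD8 and 260, 292 and 270 in SUDHL2, beside 13.4 to 20.6 (median 16.0) in OCI-LY10. CD247, the signalling chain of the T-cell receptor, was at 11.5 to 25.7 (median 21.6) in OCI-LY10 and at most 1.64 elsewhere. PRF1, the pore protein perforin, was at 7.77 to 12.5 (median 11) in OCI-LY10 and at most 0.515 elsewhere. The 4 myeloid markers past the filter, of 20, were all lower. The myeloid sum was 0.705 to 2.12 in OCI-LY10, 28.9 to 52.0 in TMD8 and 23.9 to 38.0 in SUDHL2. In each line CD14, MPO and CSF1R stayed below the filter. EPCAM was at 6.02 to 8.64 in OCI-LY10 and listed at 0 in the 6 others. CDH1, the epithelial cadherin, was listed at 0 in OCI-LY10 and at 20.3 to 43.0 in the others. The sum of 20 epithelial, stromal and endothelial markers was 6.58 to 9.47, 38.8 to 57.7 and 31.2 to 56.9. The part of other cells in any list was not tested.

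The genes with the largest differences in the higher direction included several of restricted tissue expression. UCHL1, a ubiquitin hydrolase of neurons and of germinal centre B cells, was at 156 to 203 (median 185) in OCI-LY10, against 0.0372, 0 and 0 in TMD8 and 0 in all SUDHL2 libraries. CDH2, neural cadherin, was at 110 to 123 (median 115), against 0.0212, 0 and 0 in TMD8 and 0 in SUDHL2. Both were steady across the 9 OCI-LY10 libraries and at or near 0 in the 6 others. APP, the amyloid precursor, was at 76.5 to 115 (median 100.002), and at most 0.109 elsewhere. MAGEA1, a cancer-testis antigen of a multi-copy family, was at 80.7 to 91.2 (median 90.4), and at most 0.292 elsewhere. CTAG2, another cancer-testis antigen, NLRP2 and LILRA4, a receptor of plasmacytoid dendritic cells, were named after their values were seen. They were at 53.0 to 79.4, 46.9 to 54.4 and 82.4 to 171 in OCI-LY10, and at most 0.710, 0.00914 and 4.51 elsewhere. RNA45S5 and RPS18, among the first places of the ranking, were listed at 0 in the 6 others.

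The largest differences in the lower direction were those of structural and mitochondrial-like RNAs. RMRP, the RNA of an RNA-processing enzyme, was at 1.39 to 22.1 (median 2.15) in OCI-LY10, against 90.1, 9306 and 20850 in TMD8 and 4775, 4485 and 6720 in SUDHL2. RPPH1, the RNA of ribonuclease P, was at 0.416 to 19.3 (median 1.27), against 32.3, 4263 and 12248 in TMD8 and 2275, 2569 and 3925 in SUDHL2. For both, the TMD8 control library was the lowest of the 6, and the OCI-LY10 shEGR1#9 replicate 2 the highest of the 9. RNVU1-19, a U1 variant, and MTRNR2L genes, nuclear copies of mitochondrial sequence, were also lowest in the TMD8 control library among the 6. Among protein-coding genes, TCL1A, an activator of AKT in B cells, was listed at 0 in all 9 OCI-LY10 libraries, against 449, 296 and 380 in TMD8 and 319, 247 and 252 in SUDHL2. Its neighbour TCL1B was listed at 0 as well, against 98.4 to 212 in the others. VIM, the intermediate filament vimentin, was at 0 to 0.121 in OCI-LY10, against 188, 109 and 168 in TMD8 and 88.7, 82.8 and 84.2 in SUDHL2.

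The last comparison asked whether genes that set OCI-LY10 apart also moved with the hairpin label inside it. EGR1, the hairpins' target and an immediate early transcription factor, was at 8.71, 9.55 and 12.5 in the OCI-LY10 control libraries, 10.02, 11.3 and 20.4 with shEGR1#8 and 10.9, 11.7 and 22.5 with shEGR1#9. Its RNA was thus not lower in the libraries labelled shEGR1, and limma with Benjamini-Hochberg adjustment gave a difference of 0.42 log2 units (SE 0.27, adjusted p = 0.349). It was at 7.71, 13.2 and 11.7 in TMD8 and 19.5, 15.7 and 17.8 in SUDHL2, so it was not called between lines. Of 10612 genes tested within OCI-LY10, 620 (5.84%) rose and 288 (2.71%) fell with the averaged hairpin labels, 8.56% in all, by limma at an adjusted p under 0.05.

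The genes called between the lines were also looked up in the hairpin comparison inside OCI-LY10. Among genes called higher in OCI-LY10, 143 of the 1286 tested within it, or 11.1%, passed limma's threshold. The share was 12.5% among the 917 genes called lower that could be tested, of 1836, with 115 passing, and 7.89% (645 of 8170) among the rest. The median size of the hairpin difference was 0.12, 0.13 and 0.11 log2 units in these 3 sets, and the largest was 1.33, 2.67 and 2.28. The OCI-LY10 libraries enter both measures, so the shares are given as a description.

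Several members that marked the line rose with the hairpin label. In limma with Benjamini-Hochberg adjustment, CD79A rose by 0.65 log2 units (SE 0.11, adjusted p = 0.00926) and NFKBIE by 0.61 (SE 0.04, adjusted p = 0.000182). HLA-DQA1 rose by 0.98 (SE 0.06, adjusted p = 0.000121 in limma), STAT5A by 0.66 (SE 0.08, adjusted p = 0.00163) and HERPUD1 by 0.43 (SE 0.05, adjusted p = 0.00122). ELL3 fell by 0.41 (SE 0.06, adjusted p = 0.00587 in limma). CD79B, POU2AF1, IRF4 and BACH2 did not pass, with limma differences of 0.07, -0.21, -0.14 and -0.05 and adjusted p of 0.462, 0.0666, 0.0921 and 0.662. By list, 11 of 25 tested NF-kB genes, 8 of 14 class II genes and 7 of 17 JAK-STAT genes rose by limma. Among all genes tested, 5.84% rose and 2.71% fell. Rises were not particular to these lists. By the same test, 7 of 17 surface genes and 6 of 22 B-cell receptor and MYD88 genes rose. Common leukocyte genes had 5 rises and 1 fall among 18, and plasma cell genes 3 rises among 17. In the germinal centre list, 1 of 14 went up and 2 went down. Of 24 B-cell identity genes 6 rose and 1 fell, and of 25 activated B-cell-like genes 3 rose and 1 fell. The number of calls rested on the control libraries: leaving out 1 of them gave 313, 313 or 281 calls in place of 908, and leaving out shEGR1#9 replicate 2 or 3 gave 535 or 538.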

How the data were processed

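Libraries of 15 RNA samples were used, grouped by title and treatment label. The deposited tables give 1 value per gene and library, read as FPKM because the values are fractional and sum to no fixed total; the unit is not named in the sources used here. The submitters' processing notes name Bowtie2, HISAT, StringTie and the build hg19, without roles or versions. Depth per library is unknown, so no counting interval is given. Lines left out were 430 joined or repeated ones under SUDHL2, and 4, 10 and 10 with repeated names for OCI-LY10, TMD8 and SUDHL2. Short RNA genes were left out by name. Rescaling and calling (Python 3.11.15, numpy 2.4.6, pandas 2.3.3) are described with the results and were tested on simulated data. Within OCI-LY10, log2(FPKM + 1) of genes at 1 FPKM or more in at least 3 of 9 libraries was fitted in limma 3.58.1 (R 4.3.3) with a mean-variance trend. The members, the 15 gene lists and the tests were chosen with earlier results of these data known. Named genes are the 15 called genes with the largest difference in each direction (1 Y-linked gene left out), the 4 members with the largest difference in each list, the assay genes and a fixed set of lineage genes. All other genes in the text were named after their values were seen, most of them to complete the account of a list: among them CD22, CD72, CD180, TNFRSF13C, FCRL1, FCRLA, BANK1, IKZF3, POU2F2, STAT3, CD44, ELL3, GNA13, P2RY8, NEK6, DEF8, HERPUD1, NFKBIE, BIRC3, the NF-kB subunits, JAK2, CCR7, CD5, ITGA4, BTK, SYK, LYN and PLCG2. Alternatives were other scalings, percentile rank, a pseudocount of 0.1, other filters, control libraries only, each library left out, and a replicate block. No coordinates are printed, since no hg19 annotation was used here. A few list members are not reported here.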

Additional observations from a re-analysis of the deposited data

Results flagged for a closer look

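For CCND2 the hairpin label went opposite ways in OCI-LY10 and in TMD8. CCND2, a cyclin of the activated B-cell-like list, fell by 0.33 log2 units in OCI-LY10 (limma, Benjamini-Hochberg adjusted p = 0.00571), with every hairpin library below every control library. It was higher than the single TMD8 control library, at a level of 54.4, by 1.44 and 1.23 in the 2 TMD8 hairpin libraries. In SUDHL2 it was at 121 in the control library and at 90.1 and 96.5 in the hairpin libraries, the same direction as in OCI-LY10. The opposite direction thus rests on 1 TMD8 library, which also has the lowest share of short RNA in its label. HLA-DRB1 rose by 1.18 log2 units in OCI-LY10 (limma, adjusted p = 0.00347). Its SUDHL2 hairpin libraries, both listed at 0, were at -0.34 and -0.34 relative to a control level of 0.265; all 3 lie under the filter level of 1, and no direction is read from them. The difference between lines was not tested for either gene, and both were picked from all list members.

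Short RNA genes, left out of the comparison, made up 60.5% of the summed FPKM in the TMD8 library labelled shEGR1#8 and 55.5% in that labelled shEGR1#9, above the 36.3% of the TMD8 control library. The share was under 1% in all 9 OCI-LY10 libraries, from 0.470 to 0.612%, and 49.4 to 53.8% in the SUDHL2 libraries.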

How the results depend on the processing

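Against 1286 genes called higher, 1956 were called with libraries set to 1 total, 1574 after quantile normalization, 1126 with scaling to 5 housekeeping genes, 1261 by percentile rank and 1235 to 1442 with a library left out. The corresponding counts of genes called lower, against 1836, were 1269, 1480, 2036, 1415 and 1739 to 1986. A pseudocount of 0.1 gave 1551 higher and 2364 lower. With a minimum level of 5, which left 8856 genes, 962 were higher and 1276 lower. The control hairpin libraries only gave 1205 and 1541. In 2 alternatives chosen after seeing the data, the counts were 1131 higher and 1603 lower without genes listed at 0 on a whole side, and 1561 and 1910 against the TMD8 control library alone. Of the 113 named genes that were called, 27 lost the call under some alternative and 14 other named genes gained one; no named gene changed direction in any alternative. List medians changed sign in some alternatives for the activated B-cell-like (-0.08 to 0.38), germinal centre (-0.13 to 0.36), B-cell receptor and MYD88 (-0.28 to 0.34), surface (-0.55 to 0.56) and common leukocyte (-0.23 to 0.25) lists, and in no log2 alternative for the B-cell identity, plasma cell, NF-kB, JAK-STAT and class II lists. The 908 limma calls in OCI-LY10 were 783 to 928 under another pseudocount, filter or scaling and 281 to 1318 with a replicate left out; these fits have fewer samples, and the cause of the higher counts among them was not tested. Same-numbered libraries had correlations of -0.19 to 0.060 between control and either hairpin and of 0.13 to 0.26 between the 2 hairpins, so the numbers do not pair controls with hairpin libraries, while a pairing between the hairpins is possible; a replicate block over all 3 groups gave 775 calls. Depth is unknown, so low values carry no stated counting error.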
